A study of Homo sapiens with 8 samples.

Results

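The comparison was of MDA-MB-231 cells with a knockout of ETV1, ETV4 and ETV5 against control cells, both grown in collagen I gels, over all genes of a messenger RNA sequencing count table. Its members were the 4 gel libraries of the 8 libraries of the series: 2 of control gels and 2 of knockout gels. They were chosen by culture and genotype alone, with no measured value. MDA-MB-231 is a human triple-negative breast cancer line that was derived from a metastasis. Per the labels, the control gels held cells that had received Cas9 with a control guide RNA, and the knockout gels held cells that had received Cas9 with guides against the 3 genes. Reagents entered the cells by nucleofection in each of these groups. Cells were set at 100000 per ml in collagen I, for which the labels offer 1.2 or 2.4 mg/ml without assigning either to a sample, and were plated as droplets of 80 µl. Both groups of gels were then treated with collagenase at 300 U/ml and 37 °C to free the cells, a step that monolayers did not go through. The other 4 libraries, 2 of control and 2 of knockout monolayers, served to estimate the spread and to ask where the effect in gels differed from that on plastic. Control monolayers are labelled with a control guide and no Cas9, so a test against monolayers may also hold an effect of Cas9, whose part was not tested. No label says whether the cells were a clone or a pool, or whether replicate libraries stem from separate cultures, so p values measure only the spread between these libraries.

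ETV1, ETV4 and ETV5 form the PEA3 group of the ETS family, transcription factors that bind a GGAA core and act downstream of receptor tyrosine kinases and the ERK pathway. In carcinomas they are known for promoting invasion, in part through genes of matrix proteases. Several other programmes run through the results below. Low oxygen stabilises HIF factors, which switch on glycolysis, acid export and collagen-modifying enzymes. Low sterol releases SREBP factors, which switch on the synthesis and uptake of cholesterol. Interferon signalling acts through STAT and IRF factors on a set of antiviral effectors.

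The control gels held 21399230 and 18806653 counts and the knockout gels 18740354 and 19250921. Between 22332 and 22928 genes had at least 1 count in each, and mitochondrially encoded genes took 2.65 to 4.26% of counts. The first principal component of the 4 libraries (60.2% of the variance) separated knockout from control gels, and the second (22.7%) separated the 2 knockout gels from each other. The replicates differed by more than counting error, their chi-squared over its degrees of freedom being 4.19 in the control and 6.31 in the knockout gels. Among 11 genes that mark this line, such as VIM, AXL and MSN, SPARC had at most 4 counts in a library, and the summed level (CPM, counts per library size scaled to 1 common total) was 11970 to 12310 CPM in the control gels and 10620 to 10660 in the knockout gels. Of the 4 defining luminal markers ESR1 and PGR had at most 1 count in a gel library, and FOXA1 (34 to 53 counts) and GATA3 (173 to 236) were detected. The summed level of the 13 luminal markers was 1272 to 1343 CPM in the control gels and 1073 to 1077 in the knockout gels. Of the 13 leukocyte markers CD3E and MS4A1 were at 0, and the sum was 60.7 CPM in both control gels against 35.2 to 36.9 in the knockout gels, most of it from LAPTM5. Of the 9 endothelial markers CDH5, EMCN and CLDN5 were at 0 (sums of 17.8 to 18.7 against 12.2 to 13.8), and of the 11 fibroblast markers DCN and DPT were at 0 (13.2 to 13.4 against 12.1 to 13.98). In bulk libraries fewer cells of a type and less RNA per cell cannot be told apart, and the part of these markers in the results below was not tested.

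Transcripts of the targeted genes were read first. ETV1 stood at 222 and 217 CPM in the control gels and 138 and 141 CPM in the knockout gels, and ETV4 at 96.8 and 96.6 CPM in the control gels and 67.1 and 62.99 CPM in the knockout gels. In both genes the knockout libraries lay below both control libraries, with log2 differences of -0.66 ± 0.051 and -0.57 ± 0.06 (± SE, edgeR adjusted p = 3.1e-12 and 3.61e-09). ETV5 stood at 119 and 109.6 CPM in the control gels and 117 and 115 CPM in the knockout gels, so its groups overlapped, and its difference of 0.02 had a 95% interval of -0.09 to 0.13. Neither edits nor proteins can be seen in transcript counts. Of 16 other ETS factors tested, ELK1 rose (log2 0.25) and ELK3 and ELF4 fell (-0.26 and -0.29), the call of ELK1 ending without the second control gel (adjusted p = 0.0616). ETS1, a related factor that also answers to ERK, differed by 0.00 with an interval of -0.09 to 0.09.

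Of 15568 genes tested, 3721 (23.9%) had an adjusted p under 0.05, with 1786 higher in the knockout gels (11.5%) and 1935 lower (12.4%). In 61.7% of all genes tested the libraries of the 2 groups did not overlap, so a lack of overlap alone says little. That holds the more for genes named for a small adjusted p, a choice that favours separated groups. The median size of the called changes was 0.32 on the log2 scale, so most were small. Changes shown to exceed 1.5-fold were 164 (1.05%), of which 32 were higher (0.206%) and 132 lower (0.848%). Large changes therefore ran mostly downward, while calls of any size were near balance. In monolayers 2989 of the genes tested (19.2%) were called, 1495 lower and 1494 higher. Of the 132 large falls in gels, 104 were also called lower in the knockout monolayers, and of the 32 large rises 26 were called higher there. The balance of higher and lower calls rested on single libraries: the count of higher calls was 876, 887 and 923 without the first control, second control and second knockout gel, and without the first knockout gel higher calls outnumbered lower ones (1896 against 1632). The large falls were 93 to 124 with any 1 gel library left out, and the large rises 18 to 31, with 18 without the first and 20 without the second control gel.

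**Figure D1:**
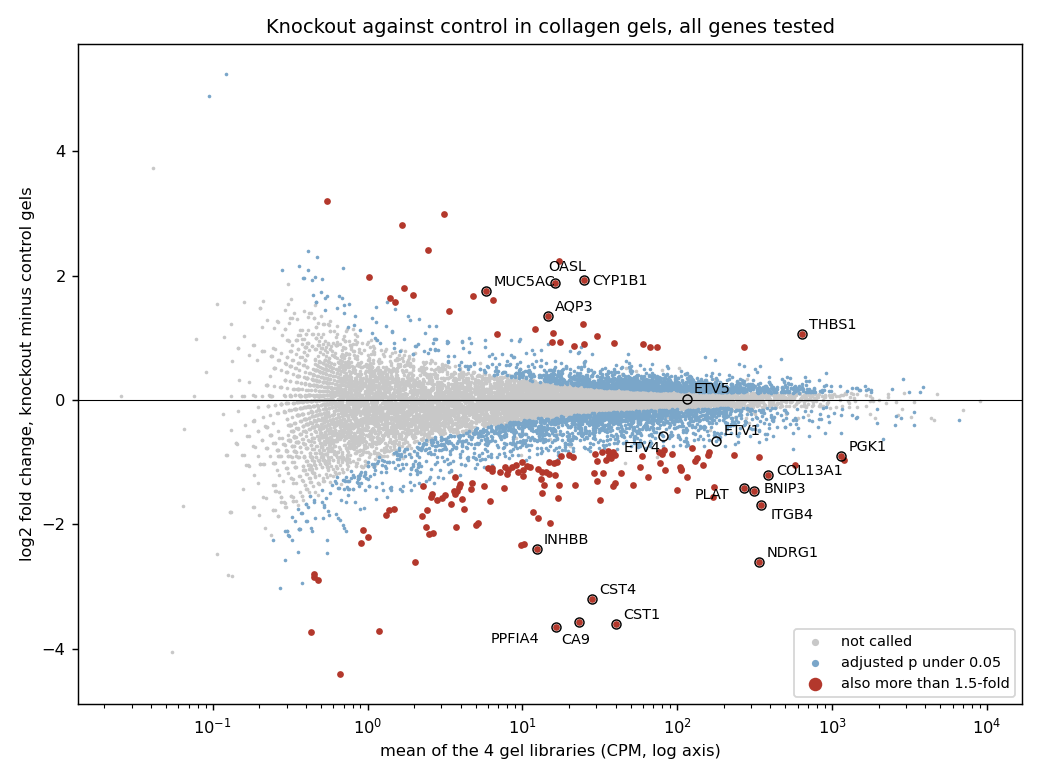
Each point is 1 of 15568 genes tested, with its mean over the 4 gel libraries in CPM (horizontal, log axis) and its log2 fold change in knockout against control gels (vertical). Genes past an adjusted p of 0.05 are blue and genes also changed by more than 1.5-fold are red, 132 of them below 0 and 32 above, and circles mark named genes.

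The 15 largest falls among called genes of at least 5 CPM whose groups did not overlap were PPFIA4, CST1, CA9, CST4, NDRG1, INHBB, DNAH11, PDE2A, RAB3B, SLCO4C1, ALDOC, SPAG4, ITGB4, B3GNT7 and PFKFB4. They cover targets of low oxygen (6 of 15 are in the lists of hypoxia targets, glycolysis or pH regulation), secreted protease inhibitors, an activin subunit and an adhesion receptor. PPFIA4, which encodes a liprin scaffold protein and is a known hypoxia target, stood at 30.9 and 29.8 CPM in the control gels and 3.29 and 1.59 CPM in the knockout gels. CA9, the cell-surface carbonic anhydrase, stood at 45.6 and 40.6 CPM in the control gels and 3.56 and 3.67 CPM in the knockout gels, a level 11.9-fold lower. INHBB, the beta-B subunit of activin and inhibin, stood at 21.4 and 20.3 CPM in the control gels and 3.45 and 4.46 CPM in the knockout gels (log2 -2.39 ± 0.14, edgeR adjusted p = 2.82e-15). Since a lack of overlap was a condition of this choice, the separation of the groups in these genes is not a finding. Of these 15 genes, 14 were also called lower in the knockout monolayers. Falls outside the gene lists were those of the axonemal dynein DNAH11 (log2 -2.33), the cyclic nucleotide phosphodiesterase PDE2A (-2.31), the vesicle GTPase RAB3B (-2.01), the organic anion transporter SLCO4C1 (-1.98) and the glycosyltransferase B3GNT7 (-1.62).

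The 15 largest rises included CYP1B1, OASL, MUC5AC, CRISPLD2, AQP3, ID3, AKR1C1, IFIT1, IL24, THBS1, ISG15, CYP1A1, ANXA10 and MMP16. They hold 3 interferon-stimulated genes and 2 xenobiotic-metabolising cytochromes. MUC5AC, a secreted gel-forming mucin, stood at 2.06 and 3.35 CPM in the control gels and 8.603 and 9.41 CPM in the knockout gels (log2 1.75 ± 0.2, edgeR adjusted p = 1.92e-08). AQP3, a water and glycerol channel, stood at 7.54 and 8.94 CPM in the control gels and 21.04 and 20.995 CPM in the knockout gels (log2 1.36 ± 0.11). The rises too were chosen among genes whose groups did not overlap. MMP16, a membrane-type matrix metalloproteinase, stood at 6.19 and 6.91 CPM in the control gels and 11.01 and 14.2 CPM in the knockout gels (log2 0.95 ± 0.15). Of the 15 rises, 12 were also called higher in the knockout monolayers.

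**Figure D2:**
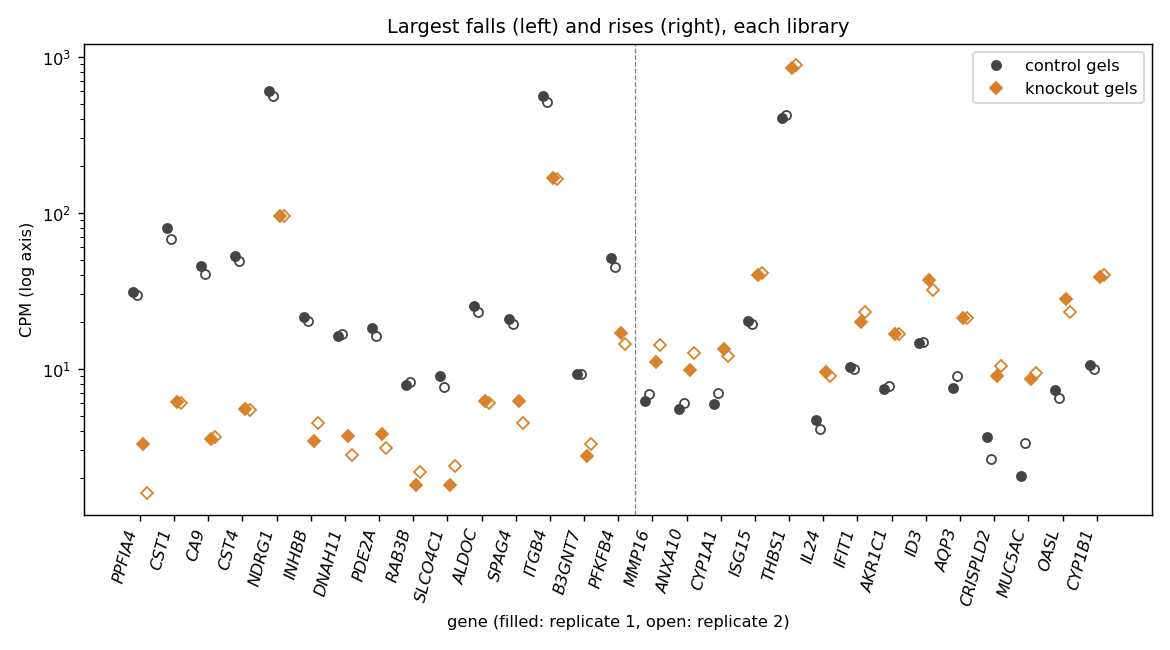
Each symbol is 1 gel library's level in CPM (vertical, log axis) for the largest falls (left) and the named largest rises (right), with circles for control and diamonds for knockout gels and filled or open symbols for replicate 1 or 2. The genes were chosen to have groups that do not overlap, and the distance between groups is largest at PPFIA4, CST1 and CA9.

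Counts by gene list are given against the shares of all tested genes above. The plot of calls by list shows lists of low-oxygen targets, glycolysis and cholesterol synthesis mostly lower, with 84.6% of glycolysis and 81.5% of cholesterol genes called. Lists of DNA replication, mitosis and HLA class I presentation were mostly higher, with 67.4%, 61.8% and 73.3% called. Where none of a list's members rose or fell by edgeR's test, none did by DESeq2 either, and the count at an unadjusted p under 0.05 was 0 too, except for 2 lower EGF ligands, 2 lower ribosomal protein genes, 1 higher gene each of fatty acid synthesis and pH regulation, and 1 lower gene each among the hyaluronan, metallothionein and fibroblast marker lists. The list of nuclear-encoded respiratory chain subunits had 18.5% of members called, all of them higher. Over all genes 11.5% were called higher and 23.9% in either direction.

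**Figure D3:**
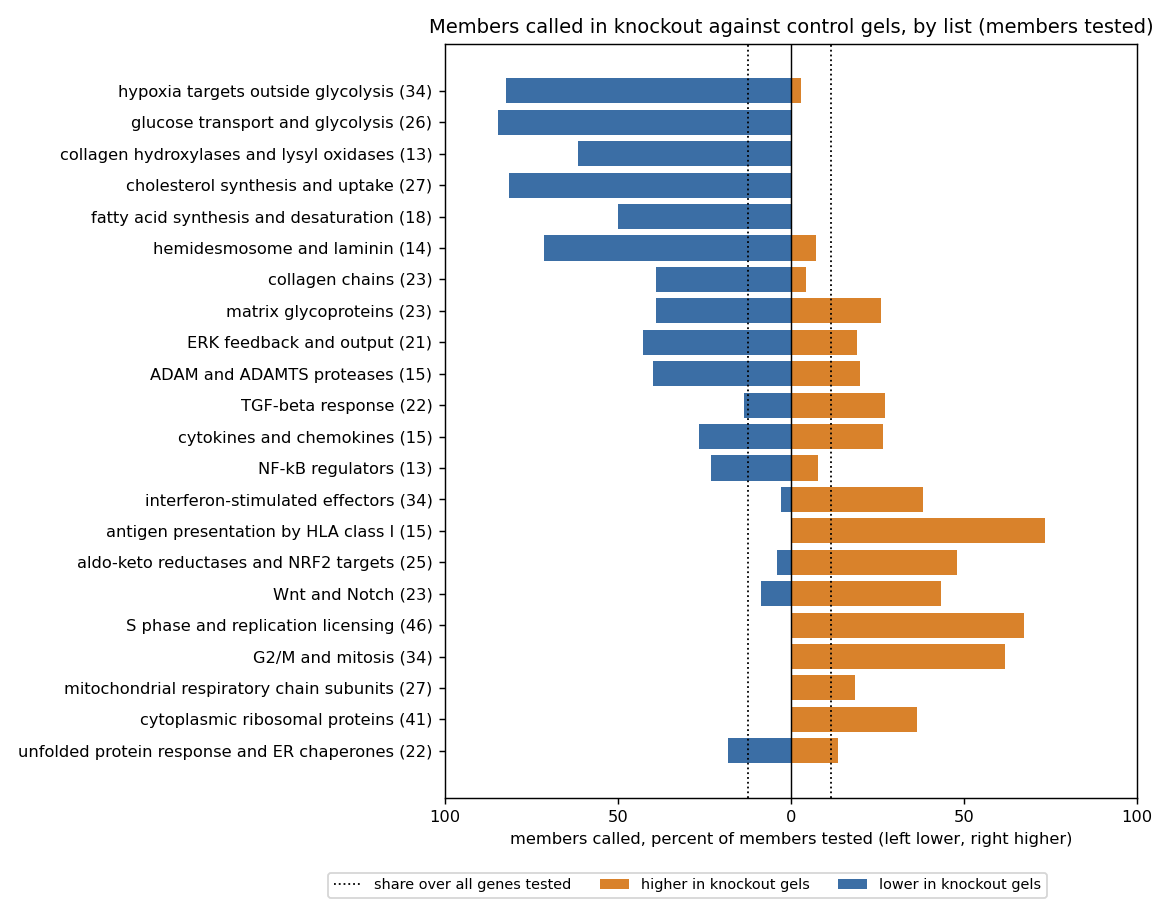
Bars give the percent of a list's tested members called lower (left, blue) or higher (right, orange) in knockout gels, with the number tested in brackets and dotted lines at the shares over all genes tested (12.4% lower, 11.5% higher). The plot holds a selection of the lists. Of those shown, glycolysis, hypoxia targets and cholesterol synthesis extend farthest to the left and HLA class I presentation, S phase and G2/M farthest to the right.

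Of 34 hypoxia targets outside glycolysis that were tested, 28 fell and 1 rose in the knockout gels, with a median log2 change of -0.65 against 0.00 over all genes tested. The list spans acid handling, mitophagy, stanniocalcins, histone demethylases and oxygen sensing. BNIP3, a mitophagy receptor, stood at 468 and 454 CPM in the control gels and 163 and 170.3 CPM in the knockout gels (log2 -1.47 ± 0.051, edgeR adjusted p = 4.55e-22). Its relative BNIP3L stood at 203 and 190.3 CPM in the control gels and 93.8 and 97.96 CPM in the knockout gels (log2 -1.04 ± 0.056). NDRG1, a stress-responsive cytoplasmic protein, stood at 603 and 560.4 CPM in the control gels and 95.7 and 95.7 CPM in the knockout gels, 6.08-fold lower. In these genes the spread within a group was small beside the gap between groups. Their choice favoured that: BNIP3 and BNIP3L were named for a small adjusted p and NDRG1 as a large fall without overlap. SPAG4, a nuclear envelope protein, fell (log2 -1.90), as did MIR210HG, the host transcript of the hypoxia-induced miRNA miR-210 (-1.80). KDM3A, a histone demethylase, fell (log2 -0.48), as did the secreted lipase inhibitor ANGPTL4 (-0.54).

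Not every well-known target of low oxygen was lower. ADM, the vasodilator adrenomedullin, was the member that rose, at 56.8 and 58.05 CPM in the control gels and 72.8 and 78.2 CPM in the knockout gels (log2 0.40 ± 0.064, edgeR adjusted p = 1.43e-05). VEGFA, the main angiogenic growth factor, stood at 202 and 207 CPM in the control gels and 214 and 200.3 CPM in the knockout gels, with overlapping groups and a log2 difference of 0.02 (95% interval -0.08 to 0.12). Among 16 angiogenic ligands and receptors, 7 fell and 1 rose (SEMA3C, whose call ended without either control gel or the second knockout gel, and by DESeq2). Those that fell include PGF, a placental relative of VEGFA (log2 -0.88), VEGFB (-0.34), the semaphorin receptor PLXND1 (-0.49) and ROBO4, at 56.7 and 54.5 CPM in the control gels and 23.1 and 19.6 CPM in the knockout gels (log2 -1.38 ± 0.083). PECAM1, which marks endothelial cells, fell as well (-0.79) while CDH5, EMCN and CLDN5 had no count in any gel library. The part of endothelial cells in the falls of ROBO4 and PLXND1 was not tested.

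The HIF factors themselves went the other way or did not pass. HIF1A, the oxygen-regulated subunit, stood at 379 and 392 CPM in the control gels and 441 and 456 CPM in the knockout gels (log2 0.22 ± 0.05, edgeR adjusted p = 0.00147), so its transcript rose. EPAS1, which encodes HIF-2 alpha, and its partner ARNT differed by 0.17 and -0.15, neither past the threshold, although EPAS1 passed it without the first knockout gel (adjusted p = 0.0185). The prolyl hydroxylases EGLN1 and EGLN3, sensors that mark HIF for breakdown and are HIF targets themselves, fell (log2 -0.39 and -1.60). Levels of EGLN3 were low, 4.75 and 3.73 CPM in the control gels and 1.096 and 1.701 in the knockout gels. CITED2, an inhibitor of HIF coactivation, rose by 0.23. The transcript of the ubiquitin ligase subunit VHL differed by -0.12 and that of the asparagine hydroxylase HIF1AN by 0.00, both short of the threshold. Counts of HIF1A messenger RNA say nothing of the protein, which is set mainly by its breakdown.

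The promoters of 4 of the genes that fell are shown because the short core of the hypoxia response element, which HIF binds, can be read in them. Each is a stretch of 60 bases upstream of the gene's start on GRCh38.p14, from RefSeq's promoter table, written 5′ to 3′ on the gene's strand, and capitals mark ACGTG or GCGTG or their reverse complements CACGT and CACGC, which may overlap.
CA9 (chr9:35673868-35673927, plus strand): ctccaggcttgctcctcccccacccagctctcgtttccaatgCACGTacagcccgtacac
PGK1 (chrX:78104037-78104096, plus strand): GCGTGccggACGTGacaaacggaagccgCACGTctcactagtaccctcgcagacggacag
LDHA (chr11:18394462-18394521, plus strand): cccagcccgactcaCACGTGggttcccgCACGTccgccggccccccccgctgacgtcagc
P4HA1 (chr10:73096921-73096980, minus strand): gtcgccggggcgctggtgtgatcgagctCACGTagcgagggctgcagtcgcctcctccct
Of 50 members of the hypoxia and glycolysis lists that fell, 43 had a promoter in the table, and 23 of these (53.5%) held ACGTG on either strand in the 250 bases before the start. The motif was in 23.4% of 11102 promoters of tested genes and in 18.7% of all 27305 in the table. The variant GCGTG was in 51.2% of the 43, against 45.2% and 31.9%. The promoter windows of all genes that fell by more than 1.5-fold held ACGTG in 19.1% of 94 cases, below the share among tested genes. Both lists were drawn up by known function, and members that did not fall were not counted apart, so the shares cannot be tied to the fall. A match describes these letters only and is not evidence of binding.

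Glycolysis fell at nearly every step. Of 26 genes of glucose transport, glycolysis and glycogen, 22 fell and none rose by edgeR's test (median log2 -0.44). At entry, the glucose transporters SLC2A1 and SLC2A3 differed by -0.07 and -0.17 and did not pass, while the hexokinase HK2 fell by 0.31. Of the bifunctional enzymes that set the level of the phosphofructokinase activator, PFKFB3 and PFKFB4 fell (log2 -0.43 and -1.61), the latter with 50.9 and 44.7 CPM in the control gels and 16.9 and 14.5 CPM in the knockout gels. ALDOC, an aldolase isoform, stood at 25.1 and 23.2 CPM in the control gels and 6.19 and 6.06 CPM in the knockout gels (log2 -1.98 ± 0.14). PGK1, phosphoglycerate kinase, stood at 1538 and 1437 CPM in the control gels and 776 and 817 CPM in the knockout gels (log2 -0.90 ± 0.049, edgeR adjusted p = 2.07e-16). Enolase 1, ENO1, fell (log2 -0.40), as did its isoform ENO2 (-1.11). At the end of the pathway LDHA, which turns pyruvate into lactate, stood at 2614 and 2517 CPM in the control gels and 1647 and 1697 CPM in the knockout gels (log2 -0.62 ± 0.047). PDK1, which holds pyruvate out of the mitochondria, fell (log2 -0.97), as did MXI1, a MYC antagonist induced by HIF (-1.18). No library of either group overlapped the other for PGK1 or LDHA, nor for ALDOC, whose choice among the largest falls required it. PGK1 and LDHA were among the list's smallest adjusted p, which favours such separation.

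**Figure D4:**
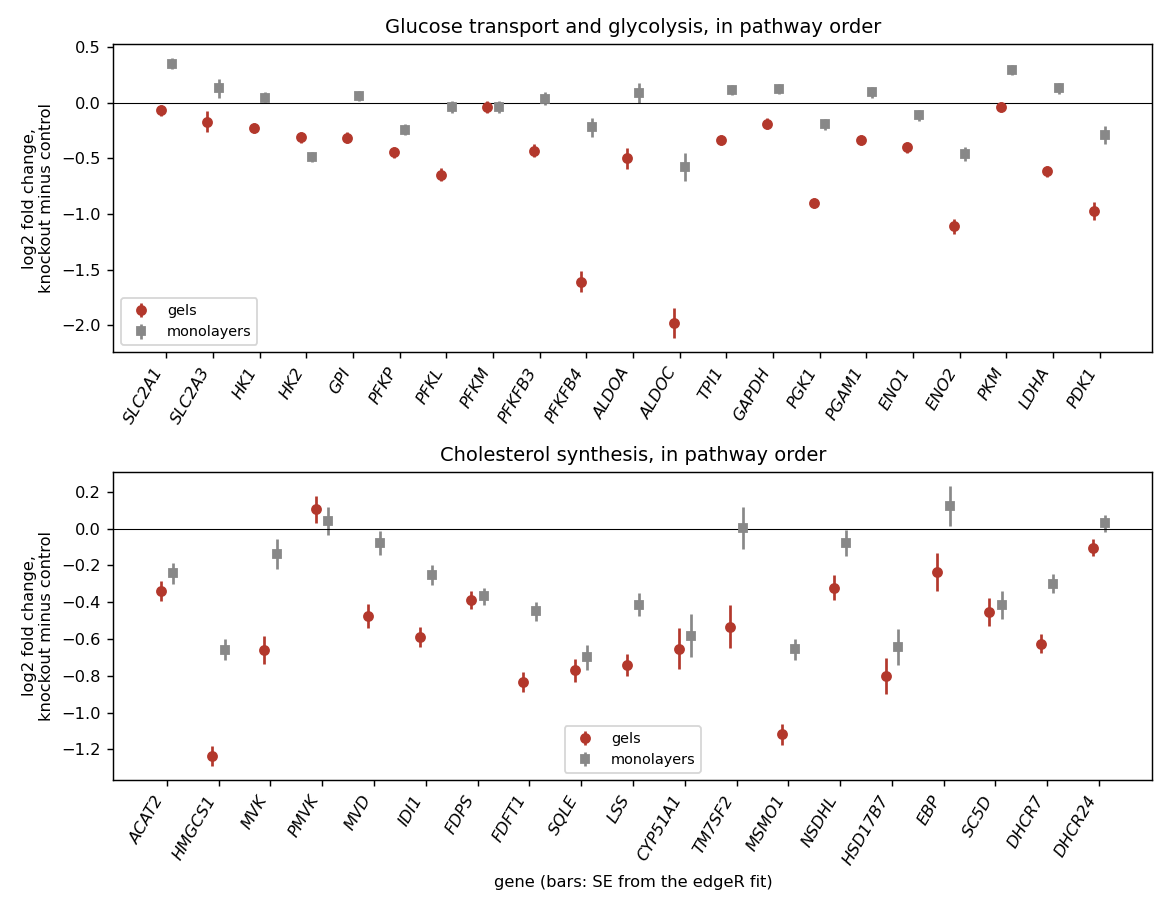
Log2 fold changes of knockout against control (vertical, bars are the SE of the edgeR fit) for genes of glucose transport and glycolysis (upper panel) and of cholesterol synthesis (lower panel), in the order of the pathway, in gels (red circles) and monolayers (grey squares). In gels 22 of 26 genes of the glycolysis list and 22 of 27 of the cholesterol list fell. Of the genes shown, which are part of these lists, the lowest gel values were ALDOC at -1.98 and HMGCS1 at -1.24.

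Handling of the acid that glycolysis makes, and respiration, were read next. Of 10 genes of pH regulation 4 fell: CA9, its relative CA12 (log2 -1.17), the lactate exporter SLC16A3 (-0.53) and the proton pump subunit ATP6V0A1 (-0.30). SLC16A3 stood at 659.9 and 660.3 CPM in the control gels and 461 and 454 CPM in the knockout gels, without overlap. Of 27 nuclear-encoded subunits of the respiratory chain 5 rose and none fell by edgeR's test, CYC1 by 0.24 and UQCRQ by 0.28. That count was 3, 2 and 2 without the first control, second control and second knockout gel, and 9 without the first knockout gel. None of the 13 mitochondrially encoded genes tested was called by edgeR, with a median of -0.22 and a range of -0.31 to -0.01. Their share of counts differed within groups (3.15 and 4.26% in the control gels, 3.82 and 2.65% in the knockout gels).

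Enzymes that modify collagen fell together with the glycolytic ones. Of 13 collagen hydroxylases and lysyl oxidases 8 fell and none rose by edgeR's test. P4HA1, the catalytic subunit of prolyl 4-hydroxylase, stood at 142 and 140.5 CPM in the control gels and 67.1 and 67.6 CPM in the knockout gels (log2 -1.07 ± 0.06, edgeR adjusted p = 4.95e-16). LOX, the lysyl oxidase that starts collagen crosslinks, stood at 95.1 and 87.1 CPM in the control gels and 38.3 and 39.2 CPM in the knockout gels (log2 -1.23 ± 0.071). Both genes had less than the lower control value in each knockout gel. They were among the list's smallest adjusted p, so this separation is not a finding. The lysyl hydroxylases PLOD1 and PLOD2 fell (log2 -0.43 and -0.55), as did the oxidases LOXL1 and LOXL2 (-0.82 and -0.50). P4HA2 fell by 0.57.

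Cholesterol synthesis was the second pathway to fall nearly throughout. Of 27 genes tested, 22 fell and none rose by edgeR's test (median log2 -0.59). HMGCS1, an early enzyme of the mevalonate pathway, stood at 161 and 165 CPM in the control gels and 69.6 and 68.5 CPM in the knockout gels (log2 -1.24 ± 0.055, edgeR adjusted p = 5.26e-19). FDFT1, which commits farnesyl diphosphate to sterols, fell (log2 -0.83), as did the later enzymes SQLE, LSS, MSMO1 and DHCR7 (-0.77, -0.74, -1.12 and -0.63). The falls thus covered early and late steps. Among the regulators, SREBF2, which encodes the SREBP factor of this pathway, fell (log2 -0.74), as did INSIG1, its sterol-dependent brake and target (-0.93). The sterol regulatory element TCACNCCAC, searched on both strands, was in 1 of 16 promoters of the members that fell (6.25%), against 0.865% of the promoters of tested genes. Members that did not fall were not counted apart, so this share cannot be tied to the fall.

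Fatty acid genes followed in part. Of 18 tested, 9 fell and none rose by edgeR's test. SCD, the desaturase that makes oleate, stood at 1591 and 1554 CPM in the control gels and 816 and 797 CPM in the knockout gels (log2 -0.96 ± 0.049, edgeR adjusted p = 7.51e-17), and FASN, fatty acid synthase, at 863 and 831 CPM in the control gels and 589.6 and 551 CPM in the knockout gels (log2 -0.57 ± 0.091). The knockout gels lay below the control gels in both. SCD was among the list's smallest adjusted p, which favours such separation. ACSS2, which makes acetyl-CoA from acetate, fell (log2 -0.90), as did FADS2 (-0.63), LPIN1 (-0.72), ACLY (-0.29) and SREBF1 (-0.26). In the opposite direction of cholesterol transport, the efflux pump ABCA1 rose by 0.60, the only rise among 9 genes of sterol efflux, while the lysosomal transporter NPC1 fell by 0.40. The sterol-sensing receptors NR1H2 and NR1H3 differed by 0.00 and -0.14 and did not pass.

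All 5 cystatins tested, inhibitors of cysteine proteases, fell. CST1 stood at 79.7 and 68.2 CPM in the control gels and 6.14 and 6.01 CPM in the knockout gels (log2 -3.61 ± 0.097, edgeR adjusted p = 4.01e-24), and CST4 at 52.6 and 48.7 CPM in the control gels and 5.53 and 5.47 CPM in the knockout gels (log2 -3.20 ± 0.1). These are among the largest falls in the comparison and lie in 1 cluster on chromosome 20, CST1 at 23747562 to 23750935 and CST4 at 23685640 to 23689038 (GRCh38.p14). CST2, a close relative, stood at 3.31 and 3.62 CPM in the control gels and 0.329 and 0.797 CPM in the knockout gels, near the limit of detection in the knockout gels. The widely expressed CST3 stood at 422 and 404 CPM in the control gels and 265 and 255 CPM in the knockout gels (log2 -0.67 ± 0.045) and the intracellular CSTB fell by 0.43. The reads of the 3 relatives can be confused: 73.0% of 50-base windows of CST1 transcripts, 91.7% of CST2 and 69.8% of CST4 were found in neither of the others, so the split between them is uncertain. Few cathepsins, a family that holds proteases cystatins inhibit, passed the test. Among 12 tested, only CTSH was called by edgeR (8.33%). That call ended by DESeq2, with the 4 gel libraries alone, and without the second control or second knockout gel. CTSB and CTSL differed by -0.06 (95% interval -0.15 to 0.04) and 0.07 (-0.06 to 0.20).

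The secreted and membrane proteases for which PEA3 factors are known gave mixed results. Of 8 genes of plasminogen activation 4 fell and 1 rose. PLAT, tissue plasminogen activator, stood at 395 and 384 CPM in the control gels and 147 and 145 CPM in the knockout gels (log2 -1.42 ± 0.053, edgeR adjusted p = 1.23e-20), and PLAU, urokinase, at 437 and 442 CPM in the control gels and 298 and 305 CPM in the knockout gels (log2 -0.54 ± 0.044). PLAUR, the urokinase receptor, fell by 0.32. SERPINB2, an inhibitor of both activators, went the other way, with 0.672 and 0.713 CPM in the control gels and 4.71 and 6.33 CPM in the knockout gels (log2 2.99 ± 0.28). Another inhibitor of the serpin family, SERPINB6, fell by 0.33, so the inhibitors did not move one way.

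Of 13 matrix metalloproteinases and their inhibitors 3 fell and 1 rose (3 rose without the first knockout gel), a share of 30.8% against 23.9% over all genes. MMP14, the membrane-type collagenase, stood at 1073 and 1061 CPM in the control gels and 856 and 819.8 CPM in the knockout gels (log2 -0.35 ± 0.046, edgeR adjusted p = 3.33e-07). The interstitial collagenase MMP1 stood at 9.94 and 10.8 CPM in the control gels and 12.2 and 13.7 CPM in the knockout gels (log2 0.32), short of the threshold, and passed it without the first knockout gel (adjusted p = 0.0358). TIMP2, an inhibitor that also helps MMP14 activate gelatinase, fell by 0.41, and TIMP1 and TIMP3 differed by 0.04 and 0.09. Of 15 ADAM and ADAMTS proteases 6 fell and 3 rose. The shedding enzymes ADAM8, ADAM17 and ADAM19 fell (log2 -0.67, -0.34 and -0.28), whereas the secreted ADAMTS1, ADAMTS9 and ADAMTS15 rose by 0.50, 0.93 and 0.55. ADAMTS1 stood at 252 and 271 CPM in the control gels and 380.0 and 360.5 CPM in the knockout gels. The secreted relative ADAMTSL4 fell (log2 -0.94), so the secreted members did not move one way.

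Genes of adhesion to laminin were mostly lower. Of 14 hemidesmosome and laminin genes 10 fell and 1 rose. ITGB4, which pairs with integrin alpha 6 in the hemidesmosome, stood at 556 and 509.8 CPM in the control gels and 167 and 165 CPM in the knockout gels (log2 -1.68 ± 0.052, edgeR adjusted p = 4.22e-23). LAMA3 and LAMB3, chains of laminin-332, the ligand of that receptor, fell (log2 -0.39 and -0.30). COL17A1, the transmembrane collagen of hemidesmosomes, fell (log2 -0.54), as did LAMA5, a chain of other laminins (-1.04). The receptor subunit, both of these chains and a further structural member were therefore lower.

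Of 15 integrins and receptors that bind collagen or RGD sites, 6 fell and 2 rose (1 rose without any 1 gel library). The main collagen receptor subunits ITGA2 and ITGB1 differed by -0.03 (95% interval -0.13 to 0.06) and -0.05 (-0.16 to 0.05). The collagen-binding kinase DDR1 fell (log2 -0.50), as did the fibronectin receptor subunit ITGA5 (-0.25), and the beta subunits ITGB2, ITGB3 and ITGB5 (-0.82, -1.35 and -0.47). ITGB3 stood at 6.002 and 5.38 CPM in the control gels and 2.19 and 2.29 CPM in the knockout gels.

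Of 23 collagen chains 9 fell and 1 rose (2 rose without the first knockout gel and 0 by DESeq2). COL13A1, a transmembrane collagen, stood at 532 and 534 CPM in the control gels and 233 and 232 CPM in the knockout gels (log2 -1.20 ± 0.047, edgeR adjusted p = 1.23e-20). COL6A1 and COL6A2, partners in collagen VI, fell (log2 -0.68 and -0.67). COL1A1 stood at 9.56 and 9.88 CPM in the control gels and 11.6 and 9.04 CPM in the knockout gels, with a log2 difference of 0.08 (95% interval -0.17 to 0.34). The collagen of the gels themselves gives no messenger RNA. The matrix glycoproteins were split, with 9 of 23 lower and 6 higher. THBS1, thrombospondin 1, stood at 406 and 419.5 CPM in the control gels and 846 and 879 CPM in the knockout gels (log2 1.06 ± 0.047, edgeR adjusted p = 4.39e-19), while its relative THBS3 fell by 1.14. TNC, tenascin C, fell (log2 -0.37), as did the basement membrane proteoglycan HSPG2 (-0.47) and LTBP2, a binding protein of the fibrillin network (-0.74). FN1, fibronectin, differed by 0.00 (95% interval -0.10 to 0.11). Hyaluronan genes stood on the other side: 3 of 8 rose and none fell by edgeR's test. HAS2, a hyaluronan synthase, stood at 52.8 and 52.9 CPM in the control gels and 95.3 and 95.04 CPM in the knockout gels (log2 0.85 ± 0.06), CEMIP, which breaks hyaluronan down, at 2.497 and 2.08 CPM in the control gels and 6.904 and 7.81 CPM in the knockout gels (log2 1.67 ± 0.18), and the receptor CD44 rose by 0.37. The other synthase HAS3 and the hyaluronidase HYAL2 differed by 0.16 and 0.09 and did not pass.

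Among 16 ligands and antagonists of the TGF-beta family 4 rose and 4 fell (2 and 2 without the second control or the first knockout gel, and by DESeq2), and 2 fell without the first control gel. Besides INHBB, BMP4 stood at 138 and 137 CPM in the control gels and 216 and 213 CPM in the knockout gels (log2 0.64 ± 0.049, edgeR adjusted p = 1.92e-12). TGFB2 rose by 0.39, and TGFB1 and INHBA differed by -0.09 and 0.05 and did not pass. Of 22 response genes 6 rose and 3 fell. ID1 and ID3, direct targets of BMP signalling, stood at 35.3 and 36.98 CPM in the control gels and 59.1 and 62.2 CPM in the knockout gels and at 14.6 and 14.9 CPM in the control gels and 37.04 and 31.8 CPM in the knockout gels (log2 0.75 ± 0.073 and 1.22 ± 0.096). The feedback inhibitor SMAD7 rose by 0.57, whereas the receptor TGFBR2 fell by 0.47. Targets shared with activin and TGF-beta did not move as 1 group: TGFBI and SKIL differed by -0.04 and 0.09, both short of the threshold.

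Of 25 YAP and TAZ targets 6 rose and 5 fell (3 fell without the second control gel or by DESeq2). CCN2 fell (log2 -0.31), as did NT5E, an ecto-nucleotidase (-0.45), while F3, tissue factor, stood at 187 and 195 CPM in the control gels and 343 and 347 CPM in the knockout gels (log2 0.85 ± 0.05). ANKRD1 and AMOTL2 differed by -0.05 and -0.05 and did not pass. In 20 actin and SRF genes 4 fell and 3 rose, the rises going to 0 without the second control gel. FHL1 and CALD1 fell (log2 -1.21 and -0.47). Of 16 genes of the epithelial and mesenchymal states 8 fell and 2 rose (1 rose without the first control or first knockout gel), and the falls came from both states: the mesenchymal VIM (-0.31), ZEB1 (-0.23) and S100A4 (-0.53), and the tight junction claudins CLDN4 (-0.81) and CLDN7 (-0.69). SNAI2, a mesenchymal transcription factor, rose by 0.54. Keratins of simple epithelia moved apart, with KRT19 at 727 and 682 CPM in the control gels and 419.7 and 399.9 CPM in the knockout gels (log2 -0.78 ± 0.086) and KRT18 at 315 and 308 CPM in the control gels and 379 and 377 CPM in the knockout gels (log2 0.28 ± 0.046). Of 10 luminal markers tested 5 fell and 2 rose (1 rose without either control gel, and 3 fell without the first control or first knockout gel). AGR2 and TFF1, secreted proteins of that list, fell (log2 -1.02 and -1.26). The luminal factor GATA3 and the keratin KRT8 rose by 0.45 and 0.21, the call of GATA3 ending without the first control gel (adjusted p = 0.0865) and that of KRT8 without the second (0.0719). FOXA1, another luminal factor, differed by 0.62 and did not pass.

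Output of the ERK pathway, upstream of the PEA3 factors, was lower in part. Of 21 feedback and output genes 9 fell and 4 rose, the rises being 1 without the second control gel. DUSP6, the ERK phosphatase, stood at 496 and 496 CPM in the control gels and 335 and 333 CPM in the knockout gels (log2 -0.57 ± 0.047, edgeR adjusted p = 9.83e-12). DUSP4 and DUSP5 fell (log2 -0.43 and -0.29), as did the receptor tyrosine kinase inhibitors SPRY1 and SPRY4 (-0.54 and -0.36). Their relative SPRY2 and the output gene PHLDA1 did not pass. Both were called higher under some alternatives, SPRY2 at 0.15 with the size factors of DESeq2 and PHLDA1 at 0.13 by DESeq2. SPRED1 differed by 0.03 (95% interval -0.10 to 0.16). Of 23 inputs of the pathway, such as receptors and kinases, 1 rose and 3 fell, 17.4% called against 23.9% over all genes tested. With upper-quartile factors 0 rose, and by DESeq2 1 fell. BRAF differed by 0.14 and did not pass. Of 8 EGF family ligands 3 rose and none fell by edgeR's test. NRG1, neuregulin 1, stood at 117 and 113 CPM in the control gels and 182 and 189 CPM in the knockout gels (log2 0.69 ± 0.051, edgeR adjusted p = 8.8e-13), and AREG and EREG rose by 0.29 and 0.34. HBEGF and TGFA differed by -0.12 and -0.05 and did not pass.

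Antiviral effector genes rose in part. Of 34 interferon-stimulated effectors 13 rose and 1 fell (0 to 2 fell under the alternatives). OASL, a relative of the oligoadenylate synthases, stood at 7.35 and 6.53 CPM in the control gels and 28.001 and 23.2 CPM in the knockout gels (log2 1.88 ± 0.12, edgeR adjusted p = 3.64e-14). IFIT1, which binds viral RNA, stood at 10.3 and 9.99 CPM in the control gels and 19.9 and 23.1 CPM in the knockout gels (log2 1.08 ± 0.11), and ISG15, the ubiquitin-like modifier, at 20.3 and 19.3 CPM in the control gels and 39.7 and 41.4 CPM in the knockout gels (log2 1.04 ± 0.082). All 3 are among the largest rises, which were chosen to have groups that do not overlap. IFIT2 rose by 0.90, IFIT3 by 0.56 and IFI44 by 0.85. Other classical members did not pass: OAS1 and IFI6 differed by -0.16 and 0.22, and MX1 was near the limit of detection at 0.912 and 0.933 CPM in the control gels and 0.986 and 1.01 CPM in the knockout gels. Of the genes that sense nucleic acid or carry the signal, the adaptor STING1 fell by 0.41, while MAVS and IRF7 differed by 0.02 and 0.08.

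The promoters of IFIT1 and ISG15 are shown for the interferon-stimulated response element, the site of STAT and IRF factors, whose motif, GAAA and GAAA with any 2 bases between them, or its reverse complement is in capitals. They are stretches of 60 bases from the same RefSeq table and build, on the gene's strand.
IFIT1 (chr10:89392495-89392554, plus strand): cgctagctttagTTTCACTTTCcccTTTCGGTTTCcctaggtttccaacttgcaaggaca
ISG15 (chr1:1013365-1013424, plus strand): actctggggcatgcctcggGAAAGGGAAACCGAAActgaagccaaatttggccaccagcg
Each stretch holds 2 matches, which overlap in ISG15. Of the 13 effectors that rose, 11 had a promoter in the table, and 9 of these (81.8%) held the motif on either strand in the 250 bases before the start, against 2.42% of promoters of tested genes and 3.07% of all. The list was made of known interferon-stimulated genes, and members that did not rise were not counted apart. The share therefore cannot be tied to the rise. The ETS family's own motif CCGGAAGT was in 1 of 94 promoters (1.06%) of genes that fell by more than 1.5-fold. It was in 3.63% of all that fell and 8.32% of all that rose, against 7.06% among tested genes. The hypoxia core GCGTG had the same order, 28.7%, 40.9% and 49.8% against 45.2%. The sterol element had the opposite one, 3.19%, 1.75% and 0.416% against 0.865%. The order was therefore not particular to the ETS motif, and what lies behind it was not tested.

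Of 15 genes of HLA class I antigen presentation 11 rose and none fell by edgeR's test. TAP1, a subunit of the peptide transporter, stood at 38.2 and 38.7 CPM in the control gels and 51.9 and 49.4 CPM in the knockout gels (log2 0.40 ± 0.067, edgeR adjusted p = 2.64e-05), and its partner TAP2 rose by 0.50. The heavy chains HLA-B and HLA-C rose by 0.25 and 0.20, and the immunoproteasome subunit PSMB8 by 0.35. Heavy chain genes are close copies of each other, so their split is uncertain. These rises were small.

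Cytokines did not rise as a group in gels. Of 15 tested 4 rose and 4 fell. IL24, a cytokine of the IL-10 family, stood at 4.71 and 4.12 CPM in the control gels and 9.48 and 9.04 CPM in the knockout gels (log2 1.06 ± 0.16, edgeR adjusted p = 3.2e-06), IL11 rose by 0.54 and IL6 by 0.93, the last at 2.74 and 2.91 CPM in the control and 5.92 and 4.84 CPM in the knockout gels. IL18 fell (log2 -0.54), as did the granulocyte growth factor CSF3 (-0.91). CXCL8, the neutrophil chemokine, stood at 20.5 and 18.4 CPM in the control gels and 20.4 and 18.9 CPM in the knockout gels, with overlapping groups and a difference of 0.02 (95% interval -0.19 to 0.22). IL1B, at 3.51 and 2.25 CPM in the control gels and 2.96 and 2.604 CPM in the knockout gels, differed by -0.07 (-0.53 to 0.39). Of 13 regulators of NF-kB 3 fell and 1 rose (1 fell by DESeq2 or without the second control gel, and none rose without the first control or second knockout gel). TNIP1, an inhibitor of the pathway, fell by 0.55, and NFKB1 and NFKB2 differed by 0.13 and -0.10 and did not pass.

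Genes of the aryl hydrocarbon receptor and of NRF2, which respond to foreign compounds and oxidants, rose in part. Of 10 genes in the first list 5 rose and 1 fell. CYP1B1 stood at 10.6 and 9.93 CPM in the control gels and 38.96 and 39.8 CPM in the knockout gels (log2 1.94 ± 0.096, edgeR adjusted p = 1.91e-17), and CYP1A1, the classical target, at 5.95 and 7.02 CPM in the control gels and 13.4 and 12.1 CPM in the knockout gels (log2 0.98 ± 0.14). TIPARP, a feedback inhibitor of the receptor, rose by 0.41. All 3 had knockout gels above both control gels, which for CYP1B1 and CYP1A1 was a condition of their choice among the largest rises. TIPARP was among the list's smallest adjusted p, which favours separation too. Of 25 aldo-keto reductases and NRF2 targets 12 rose and 1 fell (0 fell without either control gel). AKR1C1 stood at 7.39 and 7.74 CPM in the control gels and 16.7 and 16.6 CPM in the knockout gels (log2 1.14 ± 0.14). Only 71.5% of 50-base windows of AKR1C1 and 47.8% of AKR1C2 transcripts were in no other of the 3 relatives compared, so the split between these genes is uncertain. NQO1, a quinone reductase shared by both lists, stood at 202 and 201 CPM in the control gels and 295 and 309 CPM in the knockout gels (log2 0.58 ± 0.054). GCLM, of glutathione synthesis, rose by 0.52, AKR1B1, aldose reductase, by 0.41, and the ferritin chains FTH1 and FTL by 0.38 and 0.44. HMOX1, heme oxygenase 1, differed by -0.08 (95% interval -0.34 to 0.17), so it did not rise with these. Of 8 metallothioneins and zinc transport genes tested, MT2A and MT1X differed by -0.04 and -0.23.

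Genes of DNA replication and mitosis rose by small amounts. Of 46 S phase genes 31 rose and none fell by edgeR's test (median log2 0.18), and of 34 G2/M genes 21 rose and none fell (median 0.16). These counts depended on the libraries: without the first control, second control or second knockout gel, 18, 16 and 17 S phase genes and 9, 10 and 11 G2/M genes rose. RRM2, which limits the supply of deoxynucleotides, stood at 275 and 279.8 CPM in the control gels and 396 and 417 CPM in the knockout gels (log2 0.55 ± 0.047, edgeR adjusted p = 2.03e-11), and UHRF1, which maintains DNA methylation, at 155 and 163 CPM in the control gels and 201 and 199 CPM in the knockout gels (log2 0.33 ± 0.049). CLSPN, a replication checkpoint mediator, rose by 0.44. The replicative helicase subunits MCM2 and MCM5 differed by 0.11 and 0.10 and did not pass. Among mitotic genes MKI67 stood at 457 and 486 CPM in the control gels and 595 and 609.9 CPM in the knockout gels (log2 0.35 ± 0.048), and CDC20 rose by 0.27, KIF20A by 0.25 and CCNB1 by 0.23. The knockout gels were above both control gels in each of these mitotic genes. The genes were among the list's smallest adjusted p, so this separation is not a finding. Of 14 G1 regulators 7 rose (4 without the second control gel), CCNE2 by 0.56 and the inhibitor CDKN1A by 0.33, while CCND1 and RB1 differed by 0.07 and 0.05. The E2F motifs TTTGGCGC and TTTCGCGC, on either strand, were in 5 of 26 promoters of S phase genes that rose (19.2%), against 1.69% among tested genes. S phase genes that did not rise were not counted apart, so this share cannot be tied to the rise.

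Ribosomal protein and histone genes were read beside these lists. Of 41 cytoplasmic ribosomal protein genes 15 rose and none fell by edgeR's test, with a median of 0.09. The count was 8, 6 and 3 without the first control, second control or second knockout gel. Of 15 replication-dependent histones 7 rose and 1 fell, with 3 rises without the first control or second knockout gel and 4 by DESeq2. H1-2 stood at 44.03 and 39.9 CPM in the control gels and 75.3 and 81.2 CPM in the knockout gels (log2 0.90 ± 0.068). Most histone transcripts lack a poly(A) tail, so their counts in a poly(A) library are a small fraction of what the cell holds. RNA quality was not read directly, and its part in these rises or in those of S phase and G2/M genes was not tested.

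Among Wnt and Notch genes 10 of 23 rose and 2 fell (5, 6 and 6 rose and 1, 0 and 0 fell without the first control, second control or second knockout gel). DKK1, a secreted Wnt inhibitor, stood at 368 and 361 CPM in the control gels and 559.7 and 592 CPM in the knockout gels (log2 0.66 ± 0.045, edgeR adjusted p = 1.09e-13). The Wnt receptor FZD7 rose by 0.58 and WNT7B by 0.77. WNT5A and AXIN2, a common readout of the pathway, differed by -0.01 and 0.21 and did not pass. Guidance genes were split, with 9 of 33 lower and 7 higher. SEMA4B stood at 104 and 101 CPM in the control gels and 52.7 and 49.5 CPM in the knockout gels (log2 -1.01 ± 0.066), PLXNA2 and SEMA6B fell (log2 -0.60 and -0.56), while SEMA7A and SLIT2 rose by 0.32 and 0.37. Ligand and receptor genes of this family thus moved in both directions.

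Stress programmes gave no single direction. Of 33 genes of amino acid supply and the integrated stress response 8 rose and 7 fell (2, 5 and 4 rose and 4, 4 and 3 fell without the first control, second control or second knockout gel). PHGDH, the entry to serine synthesis, fell by 0.35 and the amino acid transporter SLC7A5 rose by 0.32. Of 22 genes of the unfolded protein response 3 rose and 4 fell, 31.8% called against 23.9% over all genes tested. These counts moved when single gel libraries were left out. The chaperone HSPA5 did not pass (-0.03, 95% interval -0.12 to 0.06). Of 13 heat shock genes 5 rose and 2 fell, HSP90AA1 by 0.34 and HSPH1 by 0.35 upward and the cochaperones BAG3 and DNAJB1 by -0.37 and -0.22. The cochaperone DNAJA1 rose by 0.30. Of 19 survival genes 7 rose and 3 fell (4 rises without either control gel or the first knockout gel, and 1 fall without the second control gel or by DESeq2). BCL2L1, a survival factor, fell by 0.38, and PMAIP1, which opposes MCL1, rose by 0.29. Immediate-early genes, which respond to dissociation, were 4 higher and 7 lower of 23, with 1 and 2 without the first control gel, 2 lower without the second control gel and 3 without the second knockout gel or the filter on low counts, and 2 and 3 by DESeq2. JUN stood at 299.5 and 296 CPM in the control gels and 199 and 199 CPM in the knockout gels (log2 -0.58 ± 0.047), DUSP1 rose by 0.34, and JUNB differed by 0.02.

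Lastly, the effect in gels was set beside that in monolayers, which rest on other libraries. In monolayers 2989 genes (19.2% of all tested) were called. Of the 3721 genes called in gels, 1492 were called in monolayers too, 1418 in the same direction and 74 in the opposite one. The other 2229 were not called in monolayers, which does not show that the effects differ. The test of the difference called 1028 genes (6.6%), 415 with a gel effect above (2.67%) and 613 with one below the monolayer effect (3.94%). The count was 413, 627 and 623 without the first control, second control or second knockout gel. Past a fold of 1.5 the difference was called in 19 genes, all lower in gels. By list, the difference was lower in gels for 20 of 34 hypoxia targets, 21 of 26 glycolysis genes, 8 of 13 collagen hydroxylases and lysyl oxidases, 13 of 27 cholesterol genes and 6 of 15 HLA class I genes. In these lists it was higher for 1, 0, 1, 0 and 0 genes.

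The leading genes of that test showed several patterns. CA9 had log2 changes of -3.58 in gels and -0.85 in monolayers, and BNIP3 of -1.47 and -0.38, all called. LDHA and P4HA1 fell in gels (-0.62 and -1.07) and did not pass in monolayers (0.13 and -0.13). MMP14 fell in gels (-0.35) and rose in monolayers (0.35), as did ADAM19 (-0.28 and 0.53), so both proteases changed direction with the culture. PMEPA1 rose in both, by less in gels (0.30) than in monolayers (1.52). On the other side MKI67 and DUSP1 rose in gels (0.35 and 0.34) and fell in monolayers (-0.27 and -0.34), whereas CCN2 and DUSP5 fell in both, by less in gels (-0.31 and -0.29) than in monolayers (-0.80 and -0.76). CXCL8 and IL1B, which did not pass in gels, rose in monolayers by 1.69 and 2.22. Of 34 interferon effectors 13 rose in gels and 17 in monolayers, with medians of 0.16 and 0.34. OASL rose by 1.88 in gels and 2.09 in monolayers, and the difference was called in 1 of the effectors. Culture form and the digestion that only gels went through cannot be told apart here. S phase genes had a difference called in 4 of 46 and G2/M genes in 7 of 34, all higher in gels.

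**Figure D5:**
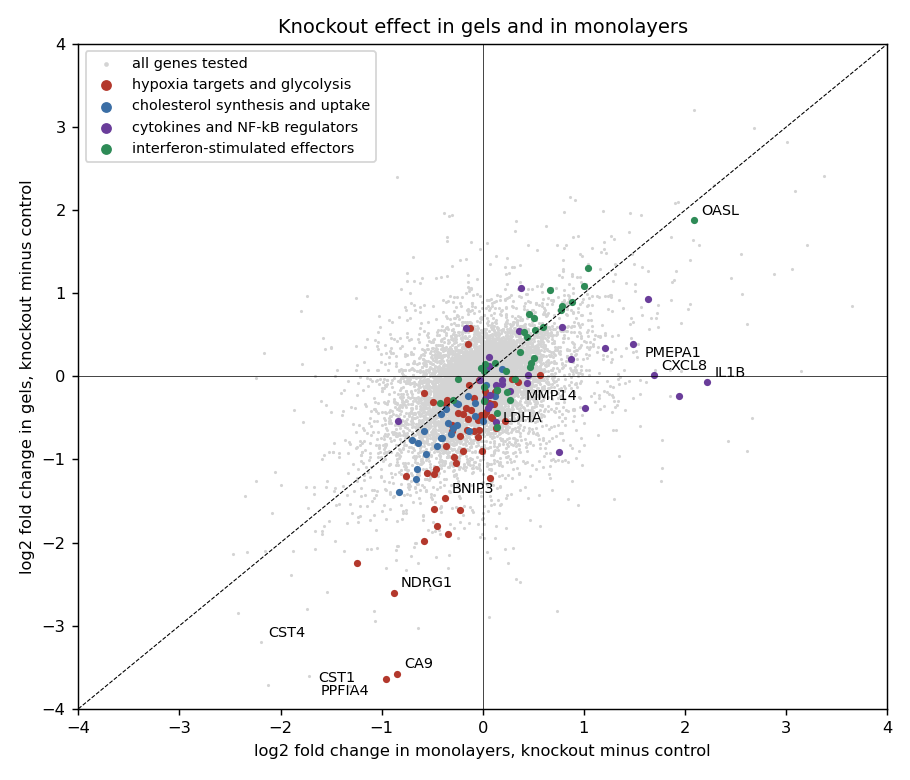
Each point is a tested gene's log2 fold change of knockout against control in monolayers (horizontal) and in gels (vertical), with coloured lists and a dashed line of equal change; 7 genes lie outside the axes. Hypoxia and glycolysis genes lie mostly below the dashed line, and CXCL8 and IL1B to the right at a gel change near 0.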

How the data were processed

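The authors deposited raw counts per gene symbol, a column per library. The submitters' processing notes name FastQC 0.11.9, the aligner STAR 2.7.9a, featureCounts, R 4.1.1 and the build hg38. Libraries were stranded and poly(A)-selected, per the labels' protocols. For the counting, strand setting and annotation are not stated by these sources, so counts of overlapping genes and close paralogs are uncertain.

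The filter (edgeR's filterByExpr with a minimum count of 10) kept 15568 of 61228 genes, which hold 99.9% of counts. Counts were tested with edgeR 4.0.16 in R 4.3.3: TMM scaling, 1 mean per group over all 8 libraries, robust quasi-likelihood F-tests with 4 residual degrees of freedom (34.3 in the median with the spread shared across genes), glmTreat for changes past 1.5-fold, two-sided p with Benjamini-Hochberg adjustment over the 15568 genes, threshold 0.05. The common biological coefficient of variation was 4.03%. CPM use TMM-scaled library sizes, and fold changes are log2 with the SE of the fit. Alternatives were other scalings and filters, DESeq2 1.42.0, the gels alone, a replicate block and each gel library left out. Promoter sequences are RefSeq's (GRCh38.p14), and positions are from the same build.

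The text names ETV1, ETV4 and ETV5, the 15 largest rises and falls (at least 5 CPM, no overlap between groups), each list's defining members and its 5 smallest adjusted p, and 10 genes of each sign by the test of the difference between cultures. Some genes that meet this rule, and some lists, are not reported here. The 58 lists and their members were chosen with earlier results of these data known, and no list was tested as a set.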

Additional observations from a re-analysis of the deposited data

Results flagged for a closer look

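The knockout effect differed between gels and monolayers in 1028 genes by the test of the difference itself (edgeR, Benjamini-Hochberg, threshold 0.05). The 20 genes with the smallest adjusted p of that difference, 10 of each sign among genes called in gels, are given as the gel effect minus the monolayer effect on the log2 scale. The matrix-associated signalling protein CCN1 had 0.72, the actin crosslinker FLNC 0.70, the proliferation marker MKI67 0.63 and the phosphatase DUSP1 0.67. CCN2 had 0.49, PEG10 0.45, CITED2 0.43, CKAP5 0.40, DUSP5 0.47 and SAMD4A 0.48. On the lower side BNIP3 had -1.09, CST1 -1.89, CA9 -2.73, PLAT -0.91 and PMEPA1 -1.21. P4HA1 had -0.94, LDHA -0.75, ADAM19 -0.81, MMP14 -0.70 and PGK1 -0.71. CCN1 and PMEPA1 are weak calls in gels: CCN1 rose by 0.18, with adjusted p = 0.119 without the first control gel and 0.0606 without the second knockout gel, and PMEPA1 by 0.30, with 0.0682 without the first control gel. The control monolayers' label does not name Cas9, and its part in these differences was not tested.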

How the results depend on the processing

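Of 450 named genes tested in gels, 317 were called, 246 of these under every alternative and 71 not under some, and none reversed. By DESeq2 the genes changed between knockout and control gels were 2479, with 1255 higher and 1224 lower, those changed by more than 1.5-fold 79 (14 higher and 65 lower), and those that differed between gels and monolayers 678. With each of the 4 gel libraries left out in turn, the changed genes ranged from 2106 to 3528 (876 to 1896 higher, 1230 to 1632 lower), those past 1.5-fold from 112 to 155 (18 to 31 higher and 93 to 124 lower), and the differing genes from 413 to 1334. With 1 library left in a group, that library is assumed to vary like those of the other groups. Other scalings, other filters and the 4 gels alone gave 3439 to 3814 changed genes, and scaling moved the higher share of calls from 48.0% to between 42.6% and 51.6%. The labels do not say whether the numbers 1 and 2 pair libraries. Replicate differences had correlations across genes of -0.063 to 0.082, so no strong shared effect was seen, which cannot show how libraries were prepared. With only 2 numbers a block gave 3937 changed genes, 176 past 1.5-fold and 1203 that differed between cultures. Across 12235 protein-coding genes, which are not independent replicates, the gel fold changes had a Spearman rho of -0.0733 with transcript length and -0.124 with GC content. For the monolayer fold changes the rho with length was larger in size, -0.252. The part of transcript length in the differences between gels and monolayers was not tested. Genes of few counts carry the widest errors: 36 of the 132 large falls and 11 of the 32 large rises averaged under 5 CPM.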
